A study of Mus musculus with 2 samples.

Results

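The genes described here are 37 genes of the cell cycle, taken by gene symbol from a table of transcript abundance in mouse mitral valves that lists 33640 genes. All 37 were found. They comprise 23 genes of mitosis, 10 of DNA replication, the G1 cyclins Ccnd1 and Ccne1, and the inhibitors Cdkn1a and Cdkn2b. The study compared 2 genotypes at 5 months of age: wild-type mice and mice with 1 C1039G allele of Fbn1 (Fbn1C1039G/+), the gene of the microfibril protein fibrillin-1, whose human mutations cause Marfan syndrome. Valve tissue of 8 hearts from male and female mice was pooled for each genotype, and each pool gave 1 RNA library. With 1 library per genotype there was no replicate and no test, and every difference given here lies between these libraries, without an error. The unit is TPM, an estimate of transcript number scaled to the library total, which corrects for transcript length and so allows levels of different genes to be compared. TPM does not keep the sequencing depth, which is unknown here.

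Dividing cells pass from G1 through DNA replication in S phase to G2 and mitosis. D-type and E-type cyclins and their kinases phosphorylate the retinoblastoma protein, which frees E2F factors to switch on replication genes. The genes of mitosis follow later, under the MuvB complex with B-Myb and FOXM1, and when cells stop dividing the DREAM complex represses both sets. Most interstitial and endothelial cells of an adult valve are quiescent, so transcripts of mitosis are usually sparse in such tissue.

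Promoters of these sets carry different elements. The cell cycle homology region (CHR), bound by MuvB complexes, was searched as TTTGAA or TTCGAA, the CCAAT box of the factor NF-Y as CCAAT, and the E2F site as TTCCCGC, or as the variant TTCGCGC, or as TTGCCGC, or as TTGGCGC. Both strands were read in windows from 250 bases before to 50 after a transcript's start (RefSeq, GRCm38.p6), which exist in the table used for 31 of the 37 genes. The windows below are shown because they belong to the pair of mitosis genes with the largest differences (Prc1, Kif23), the 1 mitosis gene with less TPM in mutant valves (Ube2c), and a replication gene with more (Mcm3) and one with less (Mcm7). Capitals mark any of the motifs, which may overlap one another, and a motif that reads the same on both strands is marked once.
Prc1, chr7:80294201-80294500, plus strand: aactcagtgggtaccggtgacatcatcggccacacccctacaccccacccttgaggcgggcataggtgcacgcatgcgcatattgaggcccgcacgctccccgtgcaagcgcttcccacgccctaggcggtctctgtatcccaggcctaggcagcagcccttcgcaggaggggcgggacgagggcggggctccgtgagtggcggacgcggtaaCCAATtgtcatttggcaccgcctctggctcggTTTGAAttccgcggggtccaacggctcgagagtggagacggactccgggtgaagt
Kif23, chr9:61946750-61947049, minus strand: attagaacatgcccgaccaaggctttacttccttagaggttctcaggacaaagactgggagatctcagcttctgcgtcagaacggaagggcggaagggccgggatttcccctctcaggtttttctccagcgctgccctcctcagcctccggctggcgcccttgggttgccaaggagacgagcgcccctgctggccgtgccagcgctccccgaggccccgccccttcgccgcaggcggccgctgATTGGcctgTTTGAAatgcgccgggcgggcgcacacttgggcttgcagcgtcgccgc
Ube2c, chr2:164769679-164769978, plus strand: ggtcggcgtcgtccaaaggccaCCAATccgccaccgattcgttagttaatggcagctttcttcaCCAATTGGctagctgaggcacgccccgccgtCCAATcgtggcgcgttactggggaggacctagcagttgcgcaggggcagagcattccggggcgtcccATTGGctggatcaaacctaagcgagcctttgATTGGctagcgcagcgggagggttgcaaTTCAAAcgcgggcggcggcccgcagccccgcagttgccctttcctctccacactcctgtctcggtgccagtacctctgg
Mcm3, chr1:20820263-20820562, minus strand: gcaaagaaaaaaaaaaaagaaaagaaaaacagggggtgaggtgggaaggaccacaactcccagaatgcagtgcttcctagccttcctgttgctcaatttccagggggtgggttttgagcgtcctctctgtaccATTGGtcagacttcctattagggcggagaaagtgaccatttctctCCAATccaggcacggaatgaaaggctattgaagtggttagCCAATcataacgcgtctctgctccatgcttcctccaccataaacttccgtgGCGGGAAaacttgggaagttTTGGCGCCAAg
Mcm7, chr5:138171834-138172133, minus strand: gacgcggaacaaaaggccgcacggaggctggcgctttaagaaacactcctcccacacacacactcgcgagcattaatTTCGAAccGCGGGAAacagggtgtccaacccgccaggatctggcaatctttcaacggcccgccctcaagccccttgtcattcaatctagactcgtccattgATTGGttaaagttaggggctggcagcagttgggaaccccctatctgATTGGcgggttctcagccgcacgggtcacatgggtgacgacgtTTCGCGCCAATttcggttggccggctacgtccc

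In Prc1 a CCAAT box began 37 bases and a CHR 5 bases before the start site (counted to the first base of the motif), and the second window of this gene, shifted by its later start, held the same pair. Kif23 had its CCAAT box 7 bases before the start and its CHR at base 3 after it. Ube2c held 1 CHR and 6 CCAAT boxes, 2 of them overlapping in a palindrome. Mcm3 held 3 CCAAT boxes and 3 E2F matches and no CHR. Mcm7 held 1 CHR, 3 CCAAT boxes and 3 E2F matches in the window shown, and 1 CCAAT box and 1 E2F match in its other window. Ube2c, at about equal levels in both pools, thus had the same kinds of motif as Prc1.

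A CHR was found for 15 of 19 mitosis genes with a window (78.9%) and for 2 of 9 replication genes (22.2%). Over all 27025 genes with a window the share was 21.7%, and over the 11489 of them with a mean of at least 1 TPM in these pools it was 17.4%. The E2F motif was found for 3 of 19 mitosis genes (15.8%) and 6 of 9 replication genes (66.7%), against 10.9% of all genes with a window and 17.6% of those with a mean of at least 1 TPM. CCAAT was common in both sets, in 17 of 19 and 8 of 9 genes, against 41.1% of all. The same contrast appeared in 40 further mitosis genes (CHR 72.5%, E2F 25%) and 36 further replication genes (CHR 22.2%, E2F 61.1%). A match describes the letters in the window and does not show that a factor binds there.

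**Figure D1:**
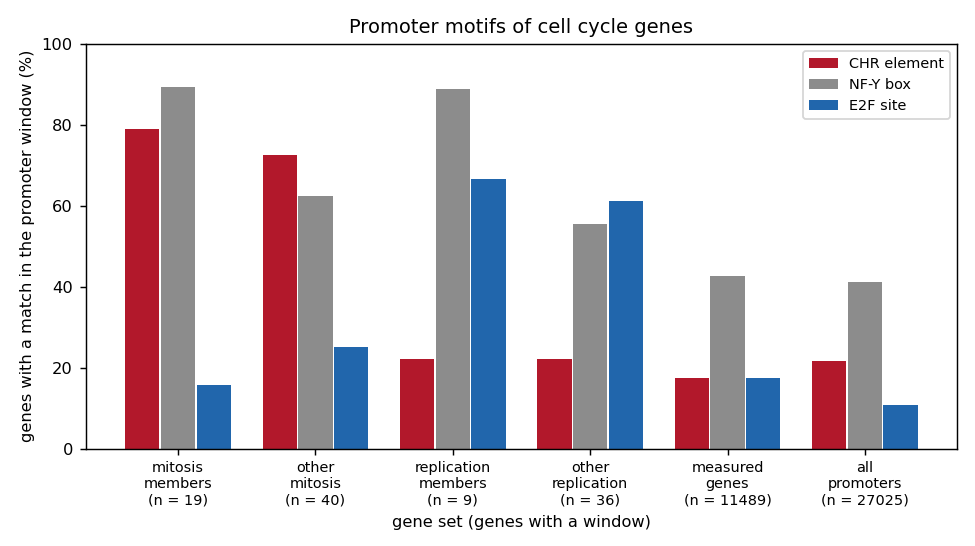
Share of genes (%) with at least 1 match to the CHR, the NF-Y (CCAAT) box or the E2F site in a promoter window, by gene set, with the number of genes under each. Red bars (CHR) stand at 78.9% for mitosis members and 22.2% for replication members, and blue bars (E2F) at 15.8% and 66.7%.

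Transcripts of the mitosis members were more abundant in mutant valves, and those of the replication members differed little on balance. The 23 mitosis genes summed to 182 TPM in wild-type and 269 TPM in mutant valves, a ratio of 1.48. Without Prc1 and Kif23 the sums were 146 and 189 TPM, a ratio of 1.29, and without Kif20a and Aurkb as well they were 138 and 173 TPM, a ratio of 1.26. The 10 replication genes summed to 193 and 215 TPM, a ratio of 1.12. Of the mitosis genes 22 of 23 had higher values in mutant valves, and of the replication genes 6 of 10. Among all 17004 genes with a mean of at least 1 TPM (called measured here), 64.9% had higher values in mutant valves. In bulk tissue, more cells in cycle and more RNA per such cell cannot be told apart.

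Differences are mutant minus wild-type values on the log2(TPM + 1) scale, which understates the change of low genes. Their median was 0.40 over the mitosis genes and 0.10 over the replication genes, against 0.14 over all measured genes. The mitosis median remained above 0 under every other scaling tried. By contrast, the replication median fell just below 0 after quantile normalization. It did so too when differences were centred on the median of genes with a mean of at least 10 TPM. Abundance matters here, since 11 of the mitosis genes had a mean under 5 TPM. Their median was 0.36, where all genes from 1 to 5 TPM had a median of 0.25 and 68.2% of them had higher values in mutant valves. The other 12 mitosis genes had a median of 0.43, where all genes from 5 to 10 TPM had 0.16 and those from 10 to 50 TPM 0.12.

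The 2-fold mark was set at a difference of 1 or more in size on the log2(TPM + 1) scale. Low genes can therefore miss it at a TPM ratio above 2. Of the 23 mitosis genes 1 lay past the mark on the higher side (Prc1) and 0 on the lower, and of the 10 replication genes 0 were either. By the TPM ratio alone 3 of the 23 mitosis genes reached 2, a count not made over all genes. Over all measured genes 4.81% lay past the mark on the higher side and 1.72% on the lower, so 1 of 23 is close to the background share. These are 818 and 293 genes, or 540 and 462 after quantile normalization. The mitosis genes thus show many small differences of the same sign and few large ones.

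**Figure D2:**
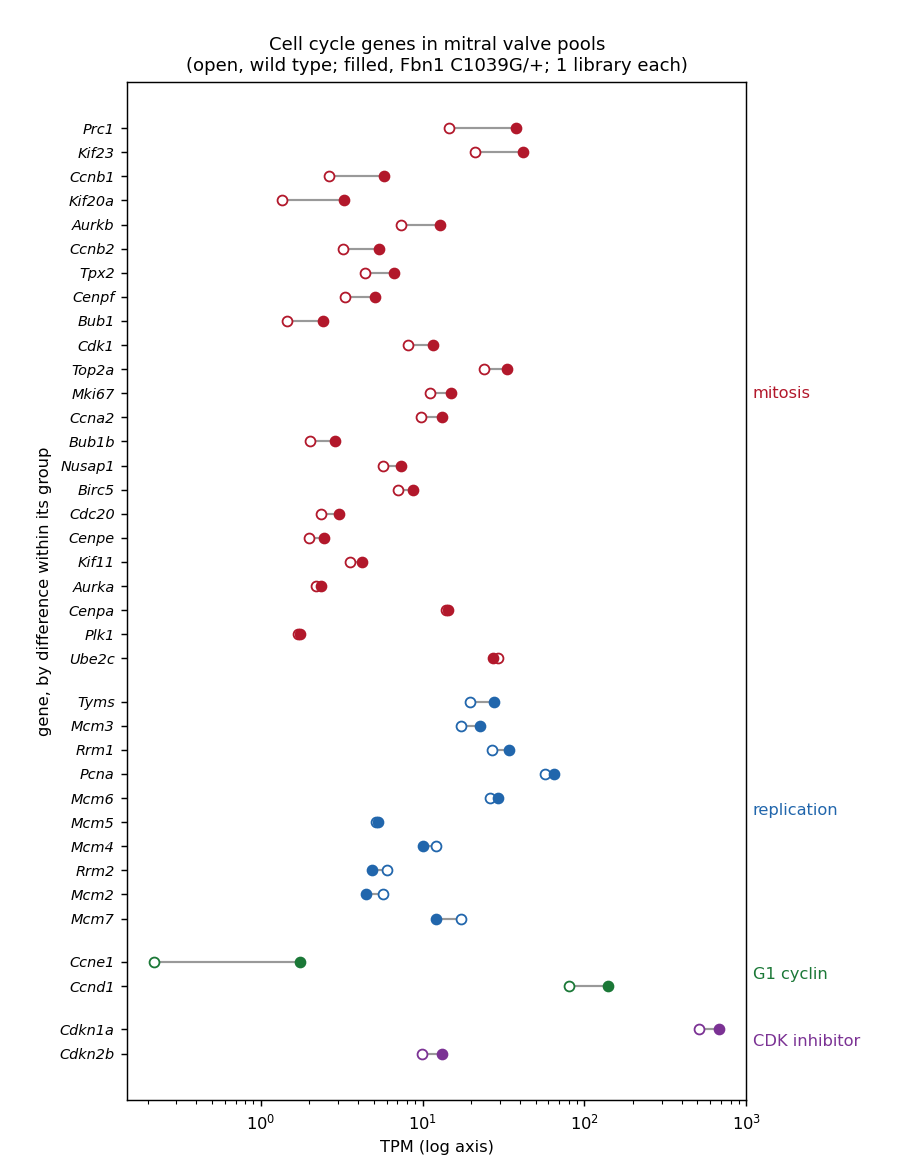
TPM (log axis) of each of the 37 genes in wild-type valves (open circle) and the mutant pool (filled circle), 1 library each, joined by a line and ordered by difference within the group. Filled circles lie to the right for 22 of 23 mitosis genes and for 6 of 10 replication genes.

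Mki67 and Top2a, the usual tissue markers of proliferation, were both higher in mutant valves. Mki67, which coats mitotic chromosomes, was at 11.1 TPM in wild-type and 15.04 TPM in mutant valves, a ratio of 1.35. Top2a, the topoisomerase that untangles sister chromatids, was at 24.0 and 33.4 TPM, a ratio of 1.39. Their differences, 0.40 and 0.46, lie near the median of the mitosis genes.

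The cyclins of S phase and mitosis and their kinase were all higher in mutant valves. Ccna2, which acts from S phase into early mitosis, was at 9.81 TPM in wild-type and 13.2 TPM in mutant valves. Cdk1, the kinase that drives entry into mitosis, was at 8.12 and 11.7 TPM. Its partner cyclin genes differed more. Ccnb1 was at 2.64 TPM in wild-type and 5.79 TPM in mutant valves, a ratio of 2.19, and Ccnb2 at 3.23 and 5.37 TPM, a ratio of 1.66. On the log2(TPM + 1) scale Ccnb1 differed by 0.90 and passed 1 only with a smaller pseudocount of 0.1 (1.10).

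Prc1 and Kif23, which had the largest differences of the mitosis members, act at the central spindle, the bundle of microtubules between separating chromosomes that directs cytokinesis. This grouping was made after the values were seen. Prc1, which crosslinks the antiparallel microtubules of that bundle, was at 14.6 TPM in wild-type and 37.8 TPM in mutant valves, a ratio of 2.59 and a difference of 1.32. The gene (ENSMUSG00000038943, chr7:80294450-80316259, GRCm38) is protein-coding, and its exons overlap those of Rccd1 on the opposite strand. Rccd1 itself was at 10.8 and 12.4 TPM. The strandedness of the libraries is not given in the sources used here, so reads of the pair may not be fully separated. The same holds for 8 of the 37 members, among them Ccna2 with Exosc9 (22.4 and 18.6 TPM), Nusap1 with Oip5 (2.59 and 5.27 TPM), Cdc20 with Elovl1 (66.4 and 73.5 TPM) and Ube2c with Tnnc2 (0 and 0.401 TPM). Prc1 was at least 2-fold higher under all 6 settings in which it was computed.

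The kinesins of the same structure were also higher. Kif23, the kinesin of the centralspindlin complex (ENSMUSG00000032254, chr9:61915905-61946774), was at 21.01 TPM in wild-type and 41.9 TPM in mutant valves, a difference of 0.96 just under the 2-fold line. Kif20a, which carries the Aurora B complex to the central spindle, was at 1.36 and 3.25 TPM, a difference of 0.85 at low abundance, below that of Ccnb1. Its exons overlap those of Cdc23, which was at 42.3 and 52.97 TPM, on the opposite strand. Partners of Kif23 that are no members, named after their values were seen, were also higher. Racgap1, the other centralspindlin subunit, was at 4.75 TPM in wild-type and 8.60 TPM in mutant valves, and Ect2, the exchange factor it recruits, at 4.44 and 6.98 TPM. Without Prc1, Kif23, Kif20a and Aurkb the median of the other 19 mitosis genes was 0.36, and 18 of them were higher.

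The chromosomal passenger complex, which corrects faulty attachments and then moves to the central spindle, did not differ as a unit. Aurkb, its kinase, was at 7.38 TPM in wild-type and 12.8 TPM in mutant valves, a ratio of 1.74. Birc5 (survivin) was at 7.04 and 8.72 TPM. The other 2 subunits, which are no members, differed less or in the other direction, with Cdca8 (borealin) at 10.3 and 11.4 TPM and the scaffold Incenp at 4.55 and 3.76 TPM. Higher values therefore stood beside a lower one within 1 complex.

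Genes of the spindle poles and spindle assembly had smaller differences, with a median of 0.20 over 5 genes. Tpx2, which nucleates spindle microtubules and activates Aurora A, was at 4.41 TPM in wild-type and 6.66 TPM in mutant valves, and Nusap1, a microtubule bundler, at 5.71 and 7.32 TPM. Kif11, the kinesin that pushes the poles apart, was at 3.56 and 4.23 TPM. Aurka (2.20 and 2.34 TPM) and Plk1 (1.69 and 1.75 TPM), kinases of centrosome maturation, were near equal in the pools. Their differences of 0.06 and 0.03 changed sign after centring or quantile normalization, and those of Kif11 and the kinetochore motor gene Cenpe did so after quantile normalization. All 5 lie at a few TPM, where single values are least firm.

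Kinetochore and checkpoint genes were between these. Cenpf, a large protein of the outer kinetochore, was at 3.31 TPM in wild-type and 5.10 TPM in mutant valves, while the kinetochore motor Cenpe was at 1.997 and 2.47 TPM. Bub1, a checkpoint kinase, was at 1.45 and 2.42 TPM, and Bub1b (BubR1), which restrains the anaphase-promoting complex, at 2.02 and 2.88 TPM. Cenpa, the centromeric histone H3 variant, was at 13.97 and 14.43 TPM. Cenpa was the most abundant of the 5 and had the smallest difference, 0.04, which is below the median of all genes and turned negative after centring or quantile normalization.

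The anaphase-promoting complex was represented by its activator and its ubiquitin-conjugating enzyme, and neither differed by much. Cdc20, the activator, was at 2.34 TPM in wild-type and 3.04 TPM in mutant valves. Ube2c, the enzyme (ENSMUSG00000001403, chr2:164769898-164778822), was at 29.1 and 27.1 TPM, a difference of −0.10, and was the 1 mitosis gene with less TPM in mutant valves. Ube2c and Top2a had similar means of 28.1 and 28.7 TPM, and their differences had opposite signs.

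**Figure D3:**
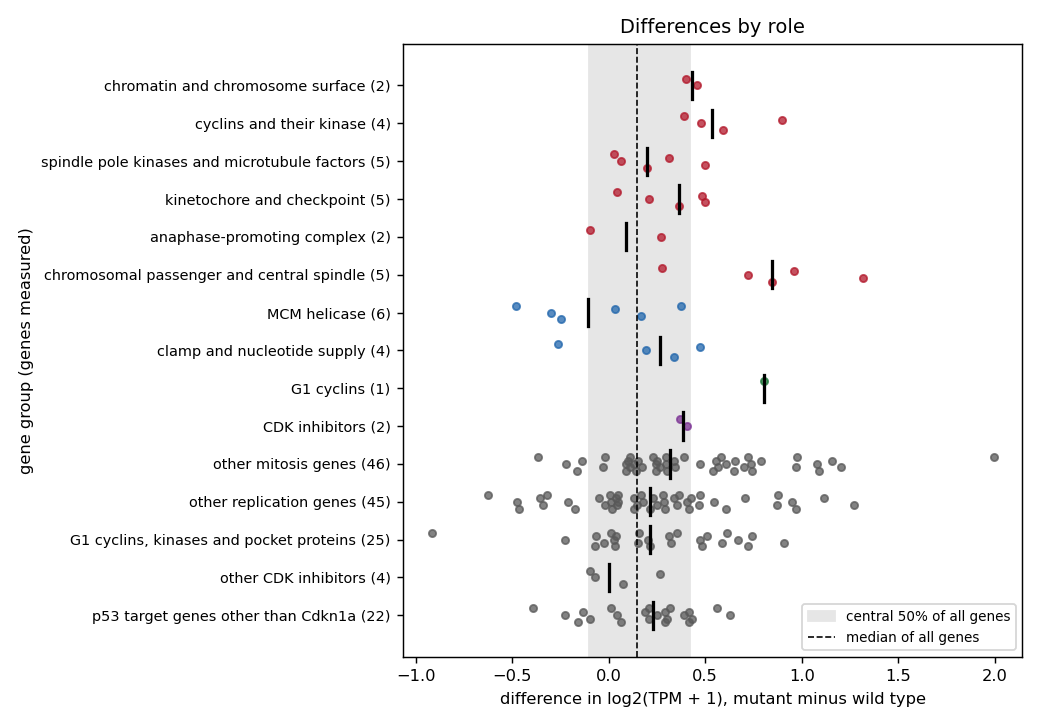
Mutant minus wild-type differences on the log2(TPM + 1) scale of measured genes by role (coloured, members; grey, other cell cycle lists), with a bar at each median, the median of all genes dashed (0.14) and their central 50% shaded. Central spindle and passenger genes have a median of 0.85 and the MCM helicase genes one of −0.11, but the roles were grouped after the values were seen. The median of all 10 replication genes, 0.10, falls below 0 after centring or quantile normalization.

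Of the replication genes, the MCM helicase differed in no common direction. The 6 proteins MCM2 to MCM7 form 1 ring that unwinds DNA, and the summed TPM of their genes was 83.5 in wild-type and 83.9 in mutant valves. Mcm3 was at 17.3 TPM in wild-type and 22.6 TPM in mutant valves, and Mcm6 at 26.01 and 29.35 TPM. Mcm5 was nearly equal, at 5.17 and 5.32 TPM, with a difference that was negative after centring or quantile normalization. Lower values in mutant valves were found for Mcm2 (5.73 and 4.47 TPM), Mcm4 (12.09 and 10.01 TPM) and Mcm7 (17.3 and 12.1 TPM). Mcm7 (ENSMUSG00000029730, chr5:138164583-138172422) had the most negative difference of all members, −0.48. It overlaps Cops6 and Ap4m1 on the opposite strand, which were at 68.3 and 63.2 TPM and at 16.6 and 22.3 TPM. Subunits of 1 ring thus spread from −0.48 to 0.37 between these libraries.

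The replication clamp and the enzymes of nucleotide supply were mostly somewhat higher. Pcna, the sliding clamp of DNA polymerases and the most abundant replication member, was at 56.8 TPM in wild-type and 65.0 TPM in mutant valves, a ratio of 1.15. Tyms, thymidylate synthase, was at 19.5 and 27.5 TPM. The subunits of ribonucleotide reductase differed in sign. Rrm1, the large subunit, which persists through the cycle, was at 26.9 and 34.3 TPM, and Rrm2, the small subunit made in S phase, at 6.03 and 4.87 TPM.

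Cyclin D1 differed more than Pcna and Cdkn1a, the other members above 50 TPM. Ccnd1, induced by growth factors and adhesion in G1 (ENSMUSG00000070348, chr7:144929931-144939925), was at 79.9 TPM in wild-type and 140 TPM in mutant valves, a ratio of 1.75 and a difference of 0.80. Among all genes from 50 to 200 TPM, percentile 97.5 of the differences was 0.80. Its exons overlap those of LTO1 on the opposite strand. Ccne1, cyclin E1 of the G1 to S transition, was at 0.220 and 1.74 TPM. Its mean of 0.98 TPM is just below the 1 TPM limit, so it is the 1 member left out of counts and medians, and no fold is drawn from it.

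Both inhibitors were higher in mutant valves as well. Cdkn1a, which encodes p21 and blocks cyclin-dependent kinases after p53 or TGF-beta signals, was by far the most abundant member, at 514 TPM in wild-type and 681 TPM in mutant valves. Cdkn2b, which encodes the TGF-beta-induced inhibitor p15 of CDK4 and CDK6, was at 9.95 and 13.1 TPM. Both ratios were 1.32, close to those of Mki67 and Top2a. Other inhibitor genes, given below, differed in both directions.

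**Figure D4:**
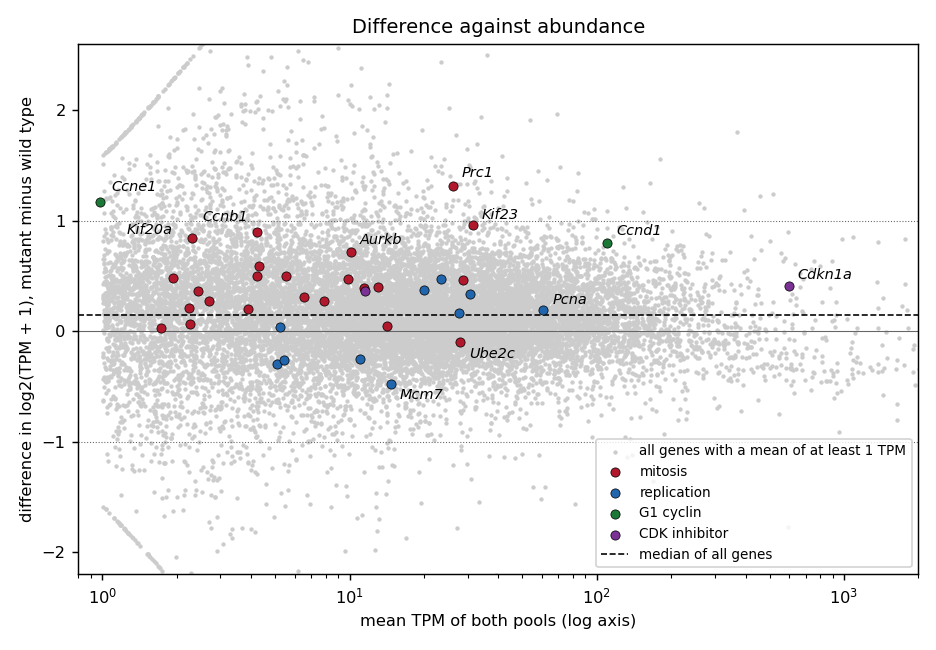
Mutant minus wild-type difference on the log2(TPM + 1) scale against the mean TPM of both pools (log axis) for all measured genes (grey) and the 37 members (coloured; Ccne1 has a mean just below 1 TPM), with the vertical axis limited to the range shown. Prc1 is the only measured member above the dotted line at 1, and Mcm7 is lowest at −0.48.

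Other genes of these pathways were taken from lists that were chosen with earlier results of these data known. Of 49 further mitosis genes found, 46 were measured, and 40 of these had higher values in mutant valves, against 64.9% of all measured genes. On the higher side 5 lay past the 2-fold mark and on the lower 0, against 4.81% and 1.72% of all. The median was 0.32, against 0.14 over all measured genes. Condensin genes, whose product compacts mitotic chromosomes, were among the further mitosis genes. Ncaph was at 3.65 TPM in wild-type and 9.36 TPM in mutant valves, Ncapd2 at 4.77 and 11.3 TPM, and Smc4 at 57.1 and 87.5 TPM. The condensin gene Ncapg, named after its values were seen, was at 1.87 and 2.09 TPM, so the subunits did not share 1 ratio. Pttg1 (securin), the second most abundant of the list by mean, was at 78.3 and 60.5 TPM. The other 3 past the 2-fold mark were also named after their values were seen. They were the kinesins Kif18b (0.913 and 6.64 TPM) and Kifc1 (0.674 and 2.86 TPM) and the centrosome kinase Nek2 (21.5 and 46.4 TPM). Kif18b and Kifc1 lay under 1 TPM in wild-type valves and reached a mean of 1 TPM only through their mutant values. Their place among the 5 was thus partly set by that limit. The activators of mitosis genes, Foxm1 (7.36 and 8.02 TPM) and Mybl2 (1.30 and 2.62 TPM), were named in the same way.

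The further replication genes had a median of 0.22, against 0.14 over all measured genes. On this list 35 of 45 were higher in mutant valves, against 64.9% of all. Past the 2-fold mark on the higher side lay 2, against 4.81% of all. Rfc4, a subunit of the clamp loader, was at 5.73 TPM in wild-type and 15.3 TPM in mutant valves. Uhrf1, which recruits the maintenance DNA methyltransferase and was named after its values were seen, was at 2.73 and 7.09 TPM. Timeless, of the fork protection complex, was at 51.7 and 102 TPM, while thymidine kinase Tk1 was at 67.4 and 79.1 TPM. Gins2, a subunit of the replicative helicase and also named afterwards, was at 15.8 and 9.86 TPM. Single genes of this list differed in both directions, but 35 were higher and 10 lower, whereas the MCM genes were 3 and 3. The list summed to 734 TPM in wild-type and 892 TPM in mutant valves. That is a ratio of 1.21, against 1.29 for the further mitosis genes, so these lists differed less from each other than the members did.

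The upstream G1 genes differed little as a list. Of 25 G1 cyclins, kinases, E2F and pocket protein genes 20 were higher, against 64.9% of all measured genes. None lay past the 2-fold mark either way, against 4.81% higher and 1.72% lower of all. The median was 0.21, against 0.14 over all. Ccnd2 (66.3 and 76.4 TPM) and the pocket protein gene Rbl2 (58.2 and 59.2 TPM), a DREAM subunit, were the most abundant. Lin9, of the MuvB complex, was at 6.95 TPM in wild-type and 13.9 TPM in mutant valves, and Ccne2 at 7.64 and 13.5 TPM. The other CDK inhibitors had a median of −0.00077 over 4 measured genes, with Cdkn1b (p27) at 26.4 and 24.7 TPM, Cdkn2c at 14.5 and 13.8 TPM and Cdkn2d at 10.3 and 12.5 TPM. Cdkn2a, which encodes the senescence marker p16, was listed at 0 in wild-type and at 0.475 TPM in mutant valves. Against 0.14 and 64.9% for all measured genes, the 22 other p53 targets had a median of 0.23 and 17 were higher. Among them Bax was at 73.7 and 85.2 TPM, Ccng1 at 83.9 and 84.6 TPM, Fas at 29.5 and 44.0 TPM and Tnfrsf10b at 10.8 and 17.2 TPM.

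Valve tissue was checked by its defining markers, which were abundant in both pools: the 9 interstitial cell genes summed to 17732 and 17901 TPM. Dcn alone made up most of this sum and was lower (11409 and 9304 TPM), while 7 of the 9 were higher, with a median difference of 0.25, among them Postn (1269 and 2263 TPM) and Tbx20 (703 and 1253 TPM). Lists of other cells moved with the mitosis genes or against them. Monocyte markers (4 of 4 higher) summed to 15.8 and 50.3 TPM, most of it Ccr2 (11.8 and 35.0 TPM). Plac8 (0 and 5.29 TPM) and Chil3 (0.121 and 3.56 TPM) reached a mean of 1 TPM only through their mutant values. Mast cell markers (4 of 4 higher) summed to 50.7 and 75.6 TPM, and macrophage markers (5 of 6 higher) to 618 and 690 TPM. Of 7 measured neutrophil markers 5 were higher and the 10 listed summed to 19.1 and 104 TPM, with Ly6g and Elane at 0 in both pools. S100a8 (0.369 and 16.2 TPM) was measured only through its mutant value. T cell markers (8 of 9 lower) summed to 151 and 65.2 TPM. Thymocyte markers, of a cell type that divides, were lower for 4 of 6 genes, with sums of 26.3 and 13.0 TPM. Most of that difference lay in Dntt (7.60 and 0 TPM) and Rag1 (4.39 and 0.183 TPM). Rag2 (3.69 and 3.82 TPM), Ptcra (3.74 and 3.49 TPM) and Cd1d1 (2.05 and 2.39 TPM) were near equal. Of the red cell and erythroblast markers all 5 measured were lower, and the 8 listed summed to 6804 and 689 TPM. Endothelial markers (4 of 5 lower) summed to 442 and 426 TPM, cardiac muscle markers (6 of 7 lower) to 2174 and 1705 TPM, and melanocyte markers (4 of 4 lower) to 111 and 53.8 TPM. For B cells 1 of 4 markers was measured and was higher, with sums of 3.56 and 3.80 TPM. Which cells carried the mitosis transcripts, and the part of these shifts in their difference, was not tested.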

How the data were processed

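RNA of 2 mitral valve pools (8 hearts each) was amplified (Ovation RNAseq v2, NuGEN), made into Nextera XT libraries and read on an Illumina HiSeq, per the labels' protocols. Trimmomatic, HISAT2, kallisto and the mm10 genome are named in the submitters' processing notes; no version, role, strandedness, annotation or way of summing transcripts is given in the sources used here. The authors deposited 1 TPM value per gene symbol and library, per the file header (column sums 999964 and 999945). Amplified reads without molecular identifiers are not independent molecules.

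Differences in log2(TPM + 1) were computed with pseudocount 1 in Python 3.11.15 (pandas 2.3.3), for 17004 genes with a mean of at least 1 TPM. The arithmetic was checked on simulated differences made with the same formula and without noise, which shows nothing about the spread between libraries. With 1 library per genotype no test was run. The members, the lists and the alternatives (pseudocounts 0.1 and 5, filters, centring, quantile normalization, abundant and predicted genes left out) were chosen with earlier results of these data known. All members are reported, and from each further list the 2 most abundant genes and the 2 largest differences at a mean of at least 5 TPM; the grouping by role and genes named otherwise were chosen after their values were seen. Coordinates are from GENCODE M21 (GRCm38, the assembly of mm10), and promoter windows from RefSeq (GRCm38.p6). Coordinates of Kif20a are not reported.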

Additional observations from a re-analysis of the deposited data

How the results depend on the processing

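The median difference of the mitosis genes stayed between 0.25 (quantile normalization) and 0.47 (pseudocount 0.1) under all alternatives run, while that of all genes ran from −0.01 to 0.16. After quantile normalization 17 of 23 mitosis genes were higher against 48.4% of all genes, and after centring 19 of 23 against 53.5%. The replication median, 0.10, changed sign to −0.0095 after centring and to −0.065 after quantile normalization, with 5 of 10 genes higher under each. With a pseudocount of 0.1 the mitosis genes at least 2-fold different were 3, adding Ccnb1 and Kif20a. Counts over all genes, higher and lower, were 1264 and 464 with a pseudocount of 0.1, 209 and 87 with a pseudocount of 5, 360 and 103 with a mean of at least 5 TPM, and 540 and 462 after quantile normalization; 499 were higher without abundant and predicted genes. No paired analysis was possible because each genotype had 1 library, and for the same reason no library could be left out. Depth is unknown, so no interval or detection limit was computed.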

Other observations

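Further lists, written after the values of the cell cycle members were seen, describe genes around the cycle, in the same 2 libraries and without a test. Of 21 genes of the DNA damage checkpoint and of recombination, which act at stalled forks and broken chromosomes, 15 had higher values in mutant valves (64.9% of all measured genes did), with a median difference of 0.38 against 0.14 over all measured genes. Chek2, a checkpoint kinase, was the most abundant, at 307 TPM in wild-type and 727 TPM in mutant valves. On the log2(TPM + 1) scale it was the 1 gene of 21 past the 2-fold mark on the higher side, where 4.81% of all genes were. Wee1, the kinase that holds back entry into mitosis, was at 7.87 and 12.9 TPM. Chek1, the kinase that answers replication stress, was named after its values were seen and was at 2.18 and 5.05 TPM. Its TPM ratio was 2.32, but its difference on the log2(TPM + 1) scale was 0.93, short of the mark. Fanci was at 86.8 and 83.4 TPM. The listed TPM of Chek2 was thus far above that of Chek1 in both pools. Exon overlaps were searched for the members only, and the annotation behind the values is not given. Whether all reads counted for Chek2 come from that gene was not tested.

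Of 19 measured growth factor ligands 13 had higher values in mutant valves against 64.9% of all measured genes, and 3 were at least 2-fold higher, against 4.81% of all. All 3 are ligands of the EGF receptor family. Nrg1 was at 11.7 TPM in wild-type and 33.9 TPM in mutant valves, Ereg at 4.89 and 14.4 TPM, and Btc at 2.97 and 7.55 TPM. Other members of that family, named with Btc after their values were seen, differed less, with Areg at 5.67 and 5.67 TPM, Hbegf at 20.7 and 25.5 TPM and Tgfa at 17.1 and 20.9 TPM. The abundant ligands of the insulin-like family were lower, with Igf1 at 682 and 406 TPM and Igf2 at 272 and 155 TPM. Genes linked to quiescence had a median of 0.07 over 14 genes, below the 0.14 of all measured genes. Of the 14 genes 9 were higher, close to the 64.9% of all. Gas1, a growth-arrest gene, was at 103 and 67.3 TPM, Btg2, an antiproliferative gene, at 16.3 and 22.3 TPM, Gas6 at 310 and 263 TPM and Txnip at 196 and 223 TPM.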
